A study of Homo sapiens with 12 samples.

Results

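Integrins are cell surface receptors made of 1 alpha and 1 beta subunit, and laminins are secreted basement membrane proteins made of 1 alpha, 1 beta and 1 gamma chain. The genes described here were taken by their name on the array, an ITGA, ITGB, LAMA, LAMB or LAMC symbol with a number, together with ITGAE, ITGAL, ITGAM, ITGAV and ITGAX. The rule itself used names only and no measured value, but it was chosen with earlier results of these data known. They are 35 of the 18136 genes, with 46 of the 22184 probes, namely 24 integrin subunit genes with 31 probes and 11 laminin chain genes with 15 probes. ITGA2B and ITGAD, which are also integrin subunits, fall outside this naming rule. ITGA2B was detected on 5 arrays and its siEZH2 change was -0.05 ± 0.16 (SE, limma adjusted p = 0.915), and ITGAD was detected on none.

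RNA came from MDA-MB-231, a mesenchymal-like, triple-negative human breast cancer cell line, and each sample was hybridised to 1 Illumina bead array in 1 colour. All cells carried an siRNA, which targeted EZH2 (siEZH2), RELA (siRelA) or RELB (siRelB) or was a negative control (siNC). They were harvested after 4 h with 10 ng/ml TNFalpha (TNF) or without it (CTRL). siEZH2 CTRL and siNC CTRL had 3 arrays each, and siEZH2 TNF, siRelA CTRL, siRelA TNF, siRelB CTRL, siRelB TNF and siNC TNF had 1 array each. All 12 samples come from this 1 cell line, and every siRNA effect is set against the same siNC arrays. The labels do not say whether replicates were separate cultures, and p-values reflect only how far these arrays differ, possibly for technical reasons.

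EZH2 is the histone methyltransferase of Polycomb repressive complex 2, which silences genes, and RELA and RELB are DNA-binding subunits of the NF-kB transcription factors that TNFalpha activates. In breast epithelium, laminin with the LAMA3 and LAMB3 chains anchors cells to the basement membrane through the integrins ITGA6/ITGB4 and ITGA3/ITGB1. Other laminins contain LAMA5, LAMB1, LAMB2 and LAMC1, and ITGA5/ITGB1, ITGAV/ITGB5 and ITGA2/ITGB1 bind fibronectin, vitronectin and collagen. Bound integrins recruit adaptors and kinases that link the matrix to actin.

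Each array detected 12337 to 12908 probes, over a background signal (the median of probes it did not detect) of 58.1 to 101.5. The 2 replicate 2 arrays stood apart, with background signals of 99.7 for siEZH2 CTRL and 101.5 for siNC CTRL against at most 80.1 on any other array, so results are also given without them. EZH2 was 6.83-fold lower with siEZH2 (log2 change -2.77 ± 0.36, SE, limma adjusted p = 0.00536). RELA was below detection on both siRelA arrays, at least 3.52-fold lower than with siNC (limma adjusted p = 0.00164). RELB was 5.55-fold lower with siRelB (limma adjusted p = 0.000608) and also 4.50-fold lower with siRelA (limma adjusted p = 0.0013). Among markers of the line, VIM, CD44, CDH2, AXL and SNAI2 were detected on all arrays and TWIST1 on none. Of 12 epithelial and luminal markers, EPCAM, ERBB2, KRT8, KRT18 and KRT19 were detected on all arrays and ESR1 and PGR on none. Their summed signal was 3916.5 to 4699 on siEZH2 arrays, 5701 to 5901 on siRelA arrays, 4489 to 5252 on siRelB arrays and 4244 to 5339 on siNC arrays. EPCAM was 2.67-fold lower with siEZH2 (limma adjusted p = 0.0119), and no other of 9 tested epithelial and none of 7 tested mesenchymal markers passed in any comparison; the part of these markers in the results was not tested. Of 11 leukocyte markers, CD68 and LCP1 were detected on all arrays and CD3E, MS4A1 and SPI1 on none.

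Testing was limited to probes detected (p under 0.05) on 3 or more of the 12 arrays, and the brightest such probe stood for its gene. This left 21 of the 35 genes, 14 integrin subunits and 7 laminin chains, among 12275 genes tested. The 14 that were not tested were ITGA4, ITGA7, ITGA8, ITGA9, ITGA11, ITGAL, ITGAM, ITGB6, ITGB7, ITGB8, LAMA1, LAMA4, LAMB4 and LAMC3, none of which was detected on more than 2 arrays. Of the 21 tested, 17 were detected on all 12 arrays. ITGA1 was detected on 5 arrays, ITGA6 on 6, ITGA10 on 9 and LAMA2 on 11, so their values lie close to background. Among receptor pairs, ITGAX and ITGB2 were measured while ITGAL and ITGAM, the other common alpha partners of the leukocyte subunit ITGB2, were detected on no array. ITGAE was detected on all arrays and its beta partner ITGB7 on none.

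Promoter sequences of the genes that rose with siEZH2 are shown first, because NF-kB subunits are among the siRNA targets and AP-1 sites are known elements of laminin chain promoters. RefSeq windows (GRCh38.p14, 250 bases before to 50 after a start site) were matched for 25 of the 35 genes, 32 windows in all, with ITGA3 not among them. Both strands were searched for the AP-1 site TGANTCA and for the kappaB consensus, and the 2 motifs did not overlap in the windows printed here. The AP-1 letters occurred in 3 of the 32 windows (9.38%) and in 7.71% of 35116 windows of all genes. The kappaB consensus occurred in 6 of the 32 windows (18.8%) and in 5.91% of all. Of these 6, 2 are overlapping LAMB3 windows that hold the same matches, and 1 is of ITGA5. The others are of ITGA1 and ITGA10, which were not called with siEZH2, and of ITGA11, which was not tested. Of the 6 genes called higher with siEZH2, ITGA5, LAMA3 and LAMB3 had a match, and the windows of ITGB5 and LAMC1 held neither motif. In LAMA3, at chr18:23872770-23873069 (plus strand), AP-1 matches begin 125 and 69 bases before the start. One LAMB3 start, at chr1:209651325-209651624 (minus strand), has an AP-1 match 67 bases before it. Another, at chr1:209652376-209652675 (minus strand), has kappaB matches that begin 59, 11 and 10 bases before it, and the last 2 overlap each other. That window overlaps a further LAMB3 window, which holds the same 3 matches. In ITGA5, at chr12:54419217-54419516 (minus strand), a kappaB match begins 82 bases and an AP-1 match 6 bases before the start. Capitals mark the matched letters, which describe these windows and were not tested as binding sites.
LAMA3: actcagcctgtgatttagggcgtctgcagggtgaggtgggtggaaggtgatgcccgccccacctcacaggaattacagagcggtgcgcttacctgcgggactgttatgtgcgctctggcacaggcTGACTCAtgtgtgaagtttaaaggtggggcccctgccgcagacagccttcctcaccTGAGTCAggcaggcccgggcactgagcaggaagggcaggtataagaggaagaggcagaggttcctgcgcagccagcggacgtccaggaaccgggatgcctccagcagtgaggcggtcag
LAMB3, first window: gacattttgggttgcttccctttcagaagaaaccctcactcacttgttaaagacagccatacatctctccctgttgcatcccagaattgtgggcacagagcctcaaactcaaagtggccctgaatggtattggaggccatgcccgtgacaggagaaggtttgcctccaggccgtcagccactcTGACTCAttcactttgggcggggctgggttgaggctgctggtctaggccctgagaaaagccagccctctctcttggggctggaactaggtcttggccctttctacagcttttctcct
LAMB3, second window: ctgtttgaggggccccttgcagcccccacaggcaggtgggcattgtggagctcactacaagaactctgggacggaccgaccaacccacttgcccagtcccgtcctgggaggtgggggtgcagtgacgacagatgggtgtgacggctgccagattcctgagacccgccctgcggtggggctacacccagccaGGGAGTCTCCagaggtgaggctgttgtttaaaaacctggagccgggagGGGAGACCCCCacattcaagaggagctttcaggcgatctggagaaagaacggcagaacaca
ITGA5: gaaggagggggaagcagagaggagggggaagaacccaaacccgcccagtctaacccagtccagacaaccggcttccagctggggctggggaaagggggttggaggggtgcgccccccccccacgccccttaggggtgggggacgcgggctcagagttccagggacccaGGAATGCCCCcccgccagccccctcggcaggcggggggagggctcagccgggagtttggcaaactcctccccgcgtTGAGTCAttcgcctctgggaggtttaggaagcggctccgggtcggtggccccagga

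The first comparison asked how loss of EZH2 alters these genes when no TNF is given. With siEZH2, 3 laminin chain genes and 3 integrin subunit genes rose 1.85- to 3.01-fold and none fell at an adjusted p under 0.05 (siEZH2 CTRL against siNC CTRL, n = 3 each, limma with Benjamini-Hochberg adjustment over all genes). They were the epithelial laminin chains LAMA3 and LAMB3, the gamma chain LAMC1, the laminin receptor subunit ITGA3, the fibronectin receptor subunit ITGA5 and the vitronectin receptor subunit ITGB5. These are 6 of 21 tested genes, against 14.8% of all 12275 genes called in either direction, 7.87% higher and 6.92% lower. The median log2 change was 0.89 over the 7 laminin chains, 0.11 over the 14 integrin subunits and -0.01 over all genes. In 8 of the 21 genes every siEZH2 array lay above every siNC array, as it did for 17.1% of all genes, and ITGB1 alone of the 21 showed the reverse, as 16.1% of all genes did. Without both replicate 2 arrays, 9 members were called higher and 1 lower, with 31.0% of all genes called. The labels do not pair the arrays, but same-numbered arrays deviated together and were taken as pairs. With the number as a block 9 members were called higher and 2 lower, with 43.6% of all genes called.

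LAMB3, a beta chain of epithelial laminin, read 12.61, 12.97 and 12.57 with siEZH2 and 11.30, 11.46 and 11.21 with siNC. The lowest siEZH2 array was thus above the highest siNC array, and the change was 1.39 ± 0.19 (2.62-fold, limma adjusted p = 0.00586). LAMA3, an alpha chain of epithelial laminin, read 7.62, 7.53 and 7.39 with siEZH2 and 6.58, 6.75 and 6.57 with siNC. This was the smallest of the 6 called rises (0.89 ± 0.17, 1.85-fold, limma adjusted p = 0.0155). Its call was lost when siEZH2 replicate 1, siEZH2 replicate 3, siNC replicate 1 or siNC replicate 3 was left out, with an adjusted p of up to 0.0857 and a log2 change of 0.83 to 0.95 over all 6 omissions of 1 array.

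LAMC1 is the gamma chain of most laminins and had the largest change of the 21 genes. It read 12.23, 12.65 and 12.45 with siEZH2 and 10.80, 10.99 and 10.76 with siNC, groups with no overlap (1.59 ± 0.19, 3.01-fold, limma adjusted p = 0.00425). The 3 differences between same-numbered arrays were 1.42, 1.66 and 1.69. LAMB1 and LAMB2 are the beta chains that assemble with it. LAMB1 read 7.34, 7.70 and 7.74 with siEZH2 and 6.36, 7.11 and 6.81 with siNC, and LAMB2 read 10.52, 10.11 and 10.39 against 9.56, 8.26 and 9.36. In both genes every siEZH2 array exceeded every siNC array, yet neither passed the adjusted test (LAMB1 0.83 ± 0.24, limma adjusted p = 0.063; LAMB2 1.28 ± 0.35, limma adjusted p = 0.0516). The siNC replicate 2 array was the low one for LAMB2 and the high one for LAMB1. Without both replicate 2 arrays LAMB1 was 0.96 higher (limma adjusted p = 0.0245) and LAMB2 0.99 higher (limma adjusted p = 0.00646), and with the replicate block the adjusted p-values were 0.00168 and 0.00135. LAMA2, the alpha chain of muscle laminin, had a log2 change of -0.04 ± 0.44 with overlapping groups.

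LAMA5, an alpha chain common in adult epithelia, read 10.88, 10.90 and 10.80 with siEZH2 and 11.13, 10.48 and 11.12 with siNC. The siNC replicate 2 array lay below all siEZH2 arrays and the other siNC arrays above them. The change was -0.05 ± 0.22 (limma adjusted p = 0.932), and -0.27 without that array (limma adjusted p = 0.324). The differences between same-numbered arrays were -0.26, 0.42 and -0.32, and the difference with TNF was -0.54. The deposited processed values were centred in 2 sets of arrays, the first with replicates 1 and 2 of both groups and the second with the other 8 arrays. Within the first set the change was 0.08 (limma adjusted p = 0.981), and 0 of all genes were called. Within the second, an additive siRNA and TNF fit that includes the TNF arrays gave -0.43 (limma adjusted p = 0.0362). LAMA5 was called lower there, with 45.5% of all genes called.

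**Figure D1:**
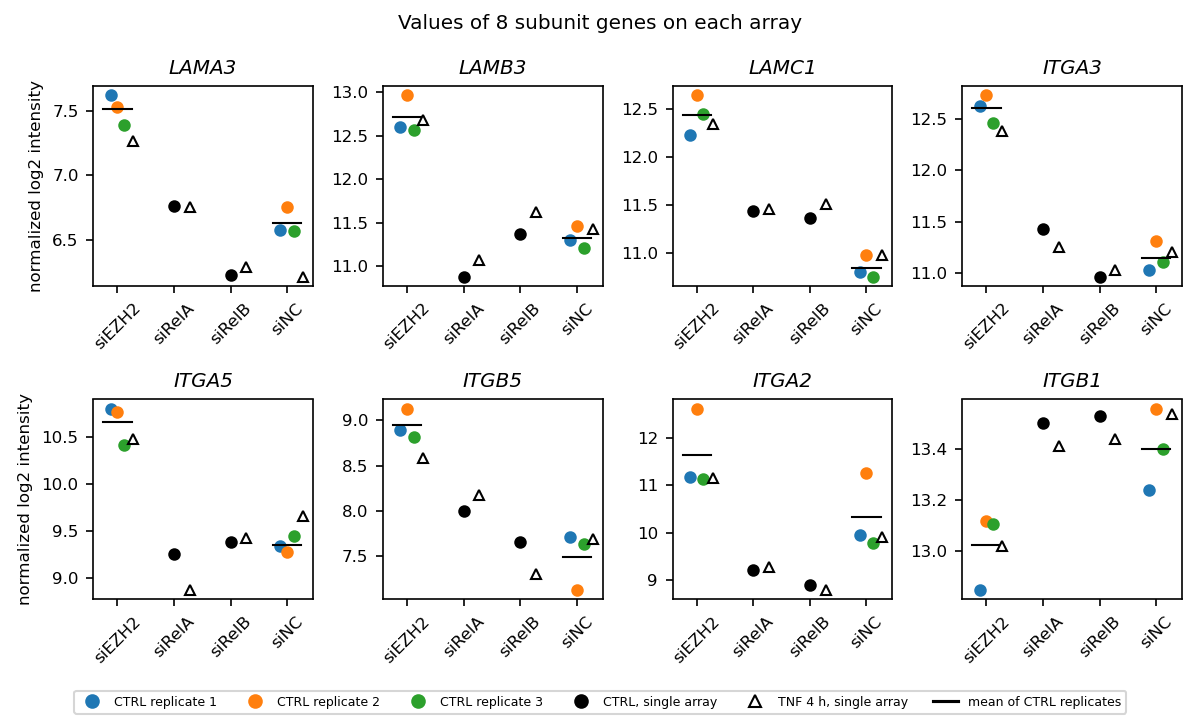
Normalized log2 intensity (vertical axis, a separate range for each gene) of 3 laminin chain and 5 integrin subunit genes on the 12 arrays, by siRNA, with filled circles for CTRL arrays, open triangles for the single TNF arrays and a line at the mean of the 3 CTRL replicates. The siEZH2 arrays of LAMC1 lie between 12.23 and 12.65, above all its other arrays, and the replicate 2 arrays of ITGA2 (12.62 with siEZH2 and 11.25 with siNC) are above the other arrays of their groups.

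Among receptor subunits that bind laminin, ITGA3 read 12.63, 12.73 and 12.45 with siEZH2 and 11.03, 11.31 and 11.11 with siNC. The 2 groups were separated by more than 1 log2 unit (1.46 ± 0.18, 2.74-fold, limma adjusted p = 0.00464). ITGA6, the other main laminin-binding alpha subunit, was undetected on the 3 siEZH2 CTRL arrays and detected on 2 of the 3 siNC CTRL arrays, too dim for a fold. Its partner ITGB4 of hemidesmosomes had a log2 change of -0.15 ± 0.34, with overlapping groups. ITGB1, the shared partner of ITGA2, ITGA3 and ITGA5, read 12.85, 13.12 and 13.11 with siEZH2 and 13.24, 13.56 and 13.40 with siNC. Its arrays did not overlap, with siEZH2 lower, but the difference did not pass (-0.38 ± 0.18, limma adjusted p = 0.235). It passed with the replicate block (limma adjusted p = 0.0291), where 43.6% of all genes were called. It also passed in the additive fit over all arrays (-0.41, limma adjusted p = 0.0221), with 32.5% of all genes called. The siEZH2 and siNC arrays of the second processing set, TNF included, called it too (-0.40, limma adjusted p = 0.0426), with 45.5% of all genes called. None of its 4 tested probes was called.

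ITGA5, the fibronectin receptor subunit, read 10.81, 10.77 and 10.42 with siEZH2 and 9.35, 9.28 and 9.45 with siNC. All siEZH2 arrays were above all siNC arrays (1.31 ± 0.18, 2.48-fold, limma adjusted p = 0.00628). ITGB5, which pairs with ITGAV, read 8.89, 9.13 and 8.81 with siEZH2 and 7.71, 7.12 and 7.64 with siNC, again without overlap (1.46 ± 0.22, 2.74-fold, limma adjusted p = 0.00769). Its difference was 2.01 between the replicate 2 arrays and 1.18 in each of the other 2 pairs. ITGAV itself, the alpha partner, had a log2 change of 0.12 ± 0.36 with overlapping groups, and ITGB3, another ITGAV partner, one of 0.13 ± 0.25.

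The collagen receptor subunit ITGA2 read 11.18, 12.62 and 11.14 with siEZH2 and 9.95, 11.25 and 9.79 with siNC. The replicate 2 array was the highest of each group, and the groups overlapped only through the siNC one. The 3 differences between same-numbered arrays were close together at 1.23, 1.36 and 1.35. The unpaired test did not call it (1.31 ± 0.52, limma adjusted p = 0.153), whereas the replicate block (limma adjusted p = 0.000166) and the fit without both replicate 2 arrays (1.29, limma adjusted p = 0.00258) did. The other collagen-binding alpha subunits, ITGA1 and ITGA10, had log2 changes of -0.38 ± 0.43 and -0.20 ± 0.26. ITGA1 was detected on 2 of the 3 siEZH2 CTRL arrays and 1 of the 3 siNC CTRL arrays.

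ITGB2, the beta subunit of leukocyte integrins, read 10.44, 9.46 and 10.19 with siEZH2 and 11.02, 10.41 and 10.91 with siNC. Each siEZH2 array was below its same-numbered siNC array, by 0.58, 0.95 and 0.73 on the log2 scale, while the groups overlapped. The unpaired change was -0.75 ± 0.30 (limma adjusted p = 0.154), and the adjusted p was 0.00229 with the replicate block and 0.025 without both replicate 2 arrays (-0.65). Its alpha partner ITGAX had a log2 change of 0.10 ± 0.42 and the T cell subunit ITGAE one of 0.50 ± 0.55. ITGAE read 9.25 on the siNC replicate 2 array and 11.02 to 11.24 on the other siNC arrays. Of 8 tested leukocyte markers, 1 was called higher and 3 lower with siEZH2, against 7.87% of all genes higher and 6.92% lower. CD14 rose 2.39-fold, LCP1 fell 1.88-fold, and CSF1R and CORO1A, undetected on the siEZH2 CTRL arrays, were at least 1.47-fold and 1.38-fold lower. The summed signal of the 11 markers was 3406 to 4507 on siEZH2 arrays and 4051 to 4159 on siRelA arrays. It was 4509.6 to 5253.5 on siRelB arrays and 3511 to 4628 on siNC arrays. All arrays are of the 1 cell line, and a relation of these markers to the ITGB2 values was not tested.

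**Figure D2:**
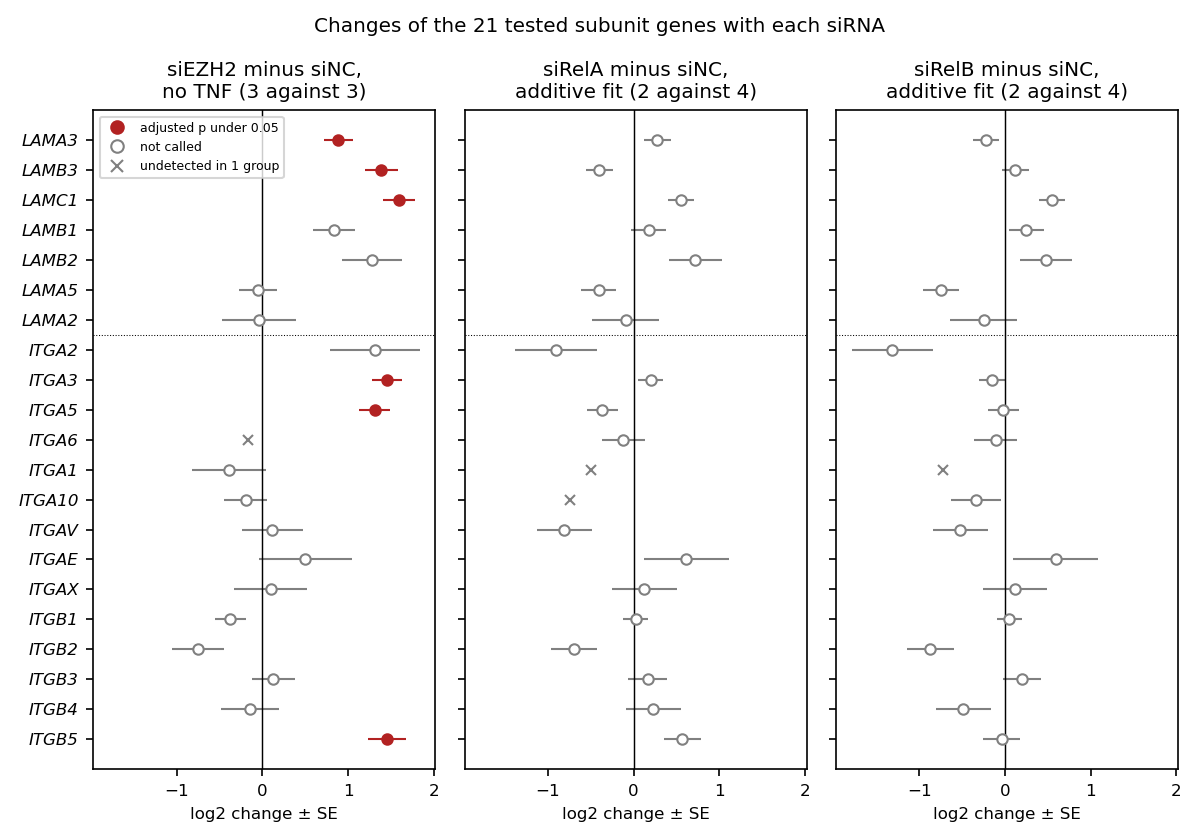
Log2 change against siNC with its standard error (horizontal axis) for each of the 21 tested genes, laminin chains above the dotted line and integrin subunits below, in separate panels for siEZH2, siRelA and siRelB. Filled red points passed an adjusted p of 0.05 (limma), which 6 genes did with siEZH2 and none did with siRelA or siRelB. At an unadjusted p under 0.05 limma gave 7 genes with siRelA and 4 with siRelB, beside 1464 and 1284 of all 12275 genes. Crosses without an error bar mark genes undetected in 1 of the groups compared, whose plotted value is no measured size.

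LAMB3 and ITGA3 rose and each had more than 1 tested probe. LAMA3, which also rose, had a second probe that was detected on 1 array only and was not tested. The tested LAMA3 probe was dim, with deposited signals of 141.2, 218.0 and 141.6 on the siNC CTRL arrays. The siEZH2 log2 changes of the 3 LAMB3 probes were 1.39 ± 0.19, 0.81 ± 0.40 (limma adjusted p = 0.252 over all probes) and 0.35 ± 0.17 (adjusted p = 0.242), in order of falling signal. Those of the 2 ITGA3 probes were 1.46 ± 0.18 and 0.88 ± 0.17 (adjusted p = 0.0179). All 5 probes thus had the same sign, and within each gene the brightest probe had the largest change. Their mean deposited signals on the siNC CTRL arrays were 2704, 117.8 and 94.0 for LAMB3 and 2406 and 121.6 for ITGA3, and the dim ones lie near the array background.

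**Figure D3:**
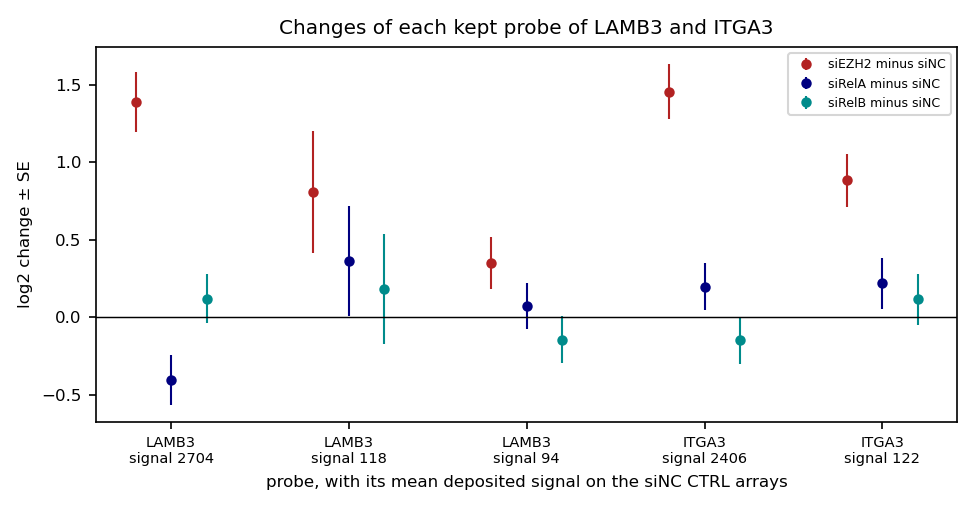
Log2 change with its standard error (vertical axis) of every tested probe of LAMB3 and ITGA3, ordered by mean deposited signal within each gene, for siEZH2, siRelA and siRelB against siNC. All 5 probes lie above 0 with siEZH2, the 3 LAMB3 probes at 1.39, 0.81 and 0.35 and the 2 ITGA3 probes at 1.46 and 0.88.

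The second comparison asked which subunit genes depend on RELA, in an additive fit of siRNA and TNF that sets the 2 siRelA arrays against the 4 siNC arrays. None of the 21 genes passed, against 1.94% of all genes called, 0.603% higher and 1.34% lower. At an unadjusted p under 0.05 limma gave 7 of the 21 and 1464 of all 12275 genes. The 7 were ITGA10, ITGAV, ITGB2, ITGB5, LAMB2, LAMB3 and LAMC1. The median change was 0.02 over the 21 genes and 0.03 over all genes.

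LAMB3, by its brightest probe, read 10.88 and 11.07 with siRelA and 11.21 to 11.46 with siNC (-0.40 ± 0.16, limma adjusted p = 0.311). Its 2 dimmer probes had the opposite sign, with log2 changes of 0.36 ± 0.36 and 0.07 ± 0.15. LAMA3 had a log2 change of 0.28 ± 0.15 (limma adjusted p = 0.559). LAMC1 read 11.44 and 11.46 with siRelA and 10.76 to 10.99 with siNC, and did not pass (0.55 ± 0.15, limma adjusted p = 0.121). Among integrin subunits ITGA2 had a log2 change of -0.91 ± 0.48 and ITGAV one of -0.81 ± 0.32. ITGA10 was undetected on both siRelA arrays and at least 1.54-fold lower there than with siNC (limma adjusted p = 0.319). ITGB5, which rose with siEZH2, read 7.99 and 8.18 with siRelA and 7.12 to 7.71 with siNC (0.57 ± 0.22, limma adjusted p = 0.299). With the authors' processed values LAMC1 was called higher with siRelA (0.70, limma adjusted p = 0.0232, and 0.66, limma adjusted p = 0.013, with a term for the 2 processing sets). These 2 fits called 0.823% and 2.92% of all genes.

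Without both replicate 2 arrays the siRelA comparison called 6 of the 21 genes, with 12.4% of all genes called. LAMC1 (0.58, limma adjusted p = 0.00701) and LAMB2 (0.47, limma adjusted p = 0.0258) were then higher with siRelA. ITGB2 (-0.81, limma adjusted p = 0.00291), ITGA2 (-0.64), LAMA5 (-0.57) and LAMB3 (-0.37, by its brightest probe) were then lower. Leaving out the siNC replicate 2 array alone, LAMA5 was the 1 of the 21 called (-0.57, limma adjusted p = 0.0335), with 3.77% of all genes called. All siRelA arrays lie in the second processing set, and within its 8 arrays the same 6 genes and ITGAV (-0.82, limma adjusted p = 0.0147) were called. Of all genes, 17.5% were called there. In the main fit over all 12 arrays, where 1.94% of all genes were called, the leukocyte marker LCP1 was 3.61-fold lower with siRelA. LCP1 was the only 1 of the 8 tested leukocyte markers that passed in that fit.

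With siRelB, none of the 21 genes passed, against 1.17% of all genes called, 0.383% higher and 0.79% lower. At an unadjusted p under 0.05 limma gave 4 of the 21 and 1284 of all 12275 genes. The 4 were ITGA2, ITGB2, LAMA5 and LAMC1. RELB was itself 4.50-fold lower with siRelA, and the siRelA and siRelB comparisons share the siNC arrays.

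ITGA2 read 8.89 and 8.79 with siRelB and 9.79 to 11.25 with siNC (-1.31 ± 0.48, limma adjusted p = 0.321). LAMA5 read 10.31 and 10.28 with siRelB and 10.48 to 11.34 with siNC (-0.75 ± 0.21, limma adjusted p = 0.163). ITGB2 read 9.93 and 9.96 with siRelB and 10.41 to 11.02 with siNC (-0.87 ± 0.27, limma adjusted p = 0.222). LAMC1 read 11.37 and 11.51 with siRelB and 10.76 to 10.99 with siNC (0.55 ± 0.15, limma adjusted p = 0.167). LAMA5 was called without the siNC replicate 2 array alone (-0.91, limma adjusted p = 0.00526), with 2.72% of all genes called. LAMC1 was called with the authors' processed values (0.64, limma adjusted p = 0.0464), with 0.391% of all genes called. Without both replicate 2 arrays, ITGA2 (-1.04, limma adjusted p = 0.000281), ITGB2 (-0.98), LAMA5 (-0.91) and ITGB4 (-0.69) were lower and LAMC1 (0.58) higher, with 11.0% of all genes called. The remaining laminin chains with siRelB were LAMB3 at 0.12 ± 0.16, LAMA3 at -0.22 ± 0.15, LAMB1 at 0.25 ± 0.20, LAMB2 at 0.48 ± 0.31 and LAMA2 at -0.25 ± 0.39, none of them called. Over the 21 genes the median change was -0.11, against 0.04 over all genes.

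**Figure D4:**
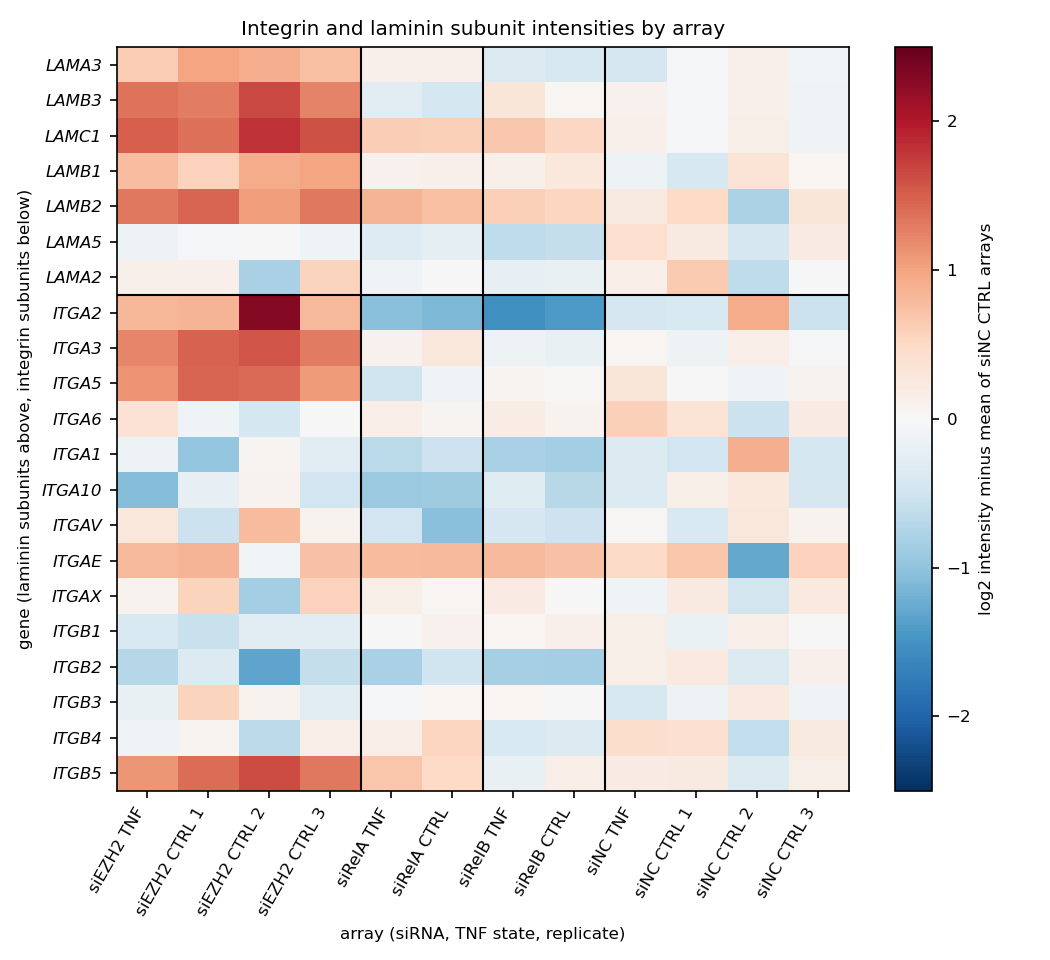
Log2 intensity of the 21 tested genes (rows) on each of the 12 arrays (columns, by siRNA, TNF state and replicate) minus the mean of the 3 siNC CTRL arrays, red for higher and blue for lower. LAMC1 is red on the 4 siEZH2 arrays (12.23 to 12.65 in log2 intensity), ITGA2 is blue on the 4 siRelA and siRelB arrays (8.79 to 9.28), and the siNC CTRL replicate 2 column departs from the other siNC columns in ITGA2, ITGAE, LAMB2 and ITGA1.

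The third comparison set the 4 TNF arrays against the 8 CTRL arrays to ask which subunit genes respond to 4 h of TNFalpha. The fit gives 1 TNF change common to all siRNAs, and the siRelA and siRelB TNF arrays are among the 4. Differences within an siRNA rest on 1 TNF array each. For ITGB4 they were 0.43 in siNC, 0.06 in siEZH2, -0.39 in siRelA and -0.04 in siRelB cells. No member passed, and none of the 12275 genes did (0.0%; at an unadjusted p under 0.05 limma gave 219 of all genes and 0 of the 21). These common log2 changes of the 21 genes lay between -0.30 ± 0.21 (ITGA10) and 0.38 ± 0.18 (ITGA6). The laminin chains that rose with siEZH2 had TNF values of -0.19 ± 0.11 for LAMA3, 0.11 ± 0.11 for LAMB3 and 0.05 ± 0.11 for LAMC1. TNF minus CTRL for LAMC1 was -0.09 in siEZH2, 0.02 in siRelA, 0.15 in siRelB and 0.14 in siNC cells. Without both replicate 2 arrays 0 members were called, with 2 of all genes called and 754 at an unadjusted p under 0.05 (limma). RELB was 1.57-fold higher with TNF (limma unadjusted p = 0.00236) and did not pass either (limma adjusted p = 0.994). A missing call in this comparison therefore does not show that a gene was unaffected by TNF.

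The siEZH2 by TNF interaction asked whether the siEZH2 difference changes with TNF, with 1 TNF array per siRNA assumed to vary like the replicated groups. No gene passed (0.0%; limma gave 22 of all genes and 0 of the 21 members at an unadjusted p under 0.05). The siEZH2 difference with TNF was 1.25 for LAMB3, 1.05 for LAMA3, 1.36 for LAMC1, 1.17 for ITGA3, 0.82 for ITGA5 and 0.90 for ITGB5. All 6 were above 0, as without TNF. The interaction was -0.49 ± 0.37 for ITGA5 and -0.56 ± 0.44 for ITGB5, and neither passed. With 1 TNF array per siRNA, a missing call does not show that the siEZH2 difference is the same with and without TNF.

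Genes that work with these subunits were read from 5 lists. The secreted matrix ligands of integrins had 5 of 12 tested members higher with siEZH2 and none lower, against 7.87% of all genes higher and 6.92% lower, with a list median of 0.57 against -0.01 over all genes. TGFBI, a matrix protein that binds integrins, rose 5.38-fold, FBN2, a microfibril protein not detected with siNC CTRL, was at least 3.48-fold higher, MFGE8, an ITGAV ligand, rose 3.15-fold and the matrix glycoprotein TNC 2.95-fold. TGFBI read 11.92, 10.93 and 11.82 with siEZH2 and 9.48, 8.44 and 9.47 with siNC, and the siEZH2 arrays were all higher. The fifth was CCN2, a matricellular protein, which rose 2.02-fold. Over the 5 lists, adjusted p-values of the genes called with siEZH2 ran from 0.00425 to 0.0394 (limma).

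Of 13 tested basement membrane partners of laminin, 3 were higher with siEZH2 and 1 lower, against 7.87% and 6.92% of all genes, and the list median was 0.37. NTN4, a laminin-related netrin, rose 4.57-fold, and the collagen IV chains COL4A5 and COL4A1 rose 2.07-fold and 1.80-fold. COL15A1, a basement membrane zone collagen, was at least 1.27-fold lower. NTN4 read 7.88, 8.87 and 8.69 with siEZH2 and 5.73, 6.72 and 6.42 with siNC, with no overlap.

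Of 30 tested focal adhesion adaptors and kinases, 4 were higher with siEZH2 and none lower (median 0.14), a share close to the 14.8% of all genes called in either direction. The kindlin FERMT1 rose 3.93-fold, TLN2, a talin that activates integrins, 2.51-fold, LIMS2, an ILK-binding adaptor, 2.15-fold and its partner PARVA 1.84-fold. FERMT1 read 9.03, 8.41 and 9.44 with siEZH2 and 7.15, 6.57 and 7.23 with siNC, which do not overlap. Of 10 tested hemidesmosome and other laminin receptor genes, only SGCE, a sarcoglycan, passed and was 1.84-fold lower (median -0.07). Among 12 integrin partner membrane proteins 1 was higher and 3 lower (median 0.15). The tetraspanin CD82 was 2.71-fold lower, the amino acid transporter subunit SLC3A2 1.80-fold, the caveolin CAV1 1.66-fold, and the tetraspanin CD81 was 1.76-fold higher. Leaving out both replicate 2 arrays, the siEZH2 calls were 6 of 12 matrix ligands (6 higher), 7 of 13 basement membrane genes (4 higher and 3 lower), 9 of 30 adaptors (8 higher and 1 lower), 3 of 10 hemidesmosome and receptor genes (1 higher and 2 lower) and 6 of 12 membrane proteins (3 higher and 3 lower), beside the 31.0% of all genes.

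With siRelA, where 1.94% of all genes were called, 2 basement membrane genes fell, COL4A5 by 2.18-fold and COL7A1, the anchoring fibril collagen, by 2.16-fold. MFGE8 rose 2.21-fold, CD82 was 2.26-fold lower and PLAUR, the urokinase receptor, 1.69-fold lower. COL4A5 read 5.84 on both siRelA arrays, against 6.87, 6.68, 7.22 and 7.12 with siNC. With siRelB, where 1.17% of all genes were called, COL18A1, the collagen precursor of endostatin, was 2.09-fold lower, TNC 1.88-fold higher, the tetraspanin TSPAN8 3.39-fold lower and CD82 1.70-fold lower. TSPAN8 read 7.09 and 6.69 with siRelB and 8.52 to 8.89 with siNC. No adaptor and no hemidesmosome list gene passed with siRelA or siRelB, and no gene of the 5 lists passed in the TNF or interaction tests. Adjusted p-values of the called list genes ran from 0.00162 to 0.0364 with siRelA and from 0.000608 to 0.0365 with siRelB (limma). When both replicate 2 arrays were left out, the siRelA fit called 6 of 30 adaptors and 4 of 10 hemidesmosome and receptor genes, with 12.4% of all genes called. The siRelB fit then called 3 of 30 adaptors, with 11.0% of all genes called. Basement membrane calls were then 5 of 13 with siRelA (2 higher and 3 lower) and 5 of 13 with siRelB (all lower). CD82 was called lower in all 3 siRNA comparisons, which share the siNC arrays.

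**Figure D5:**
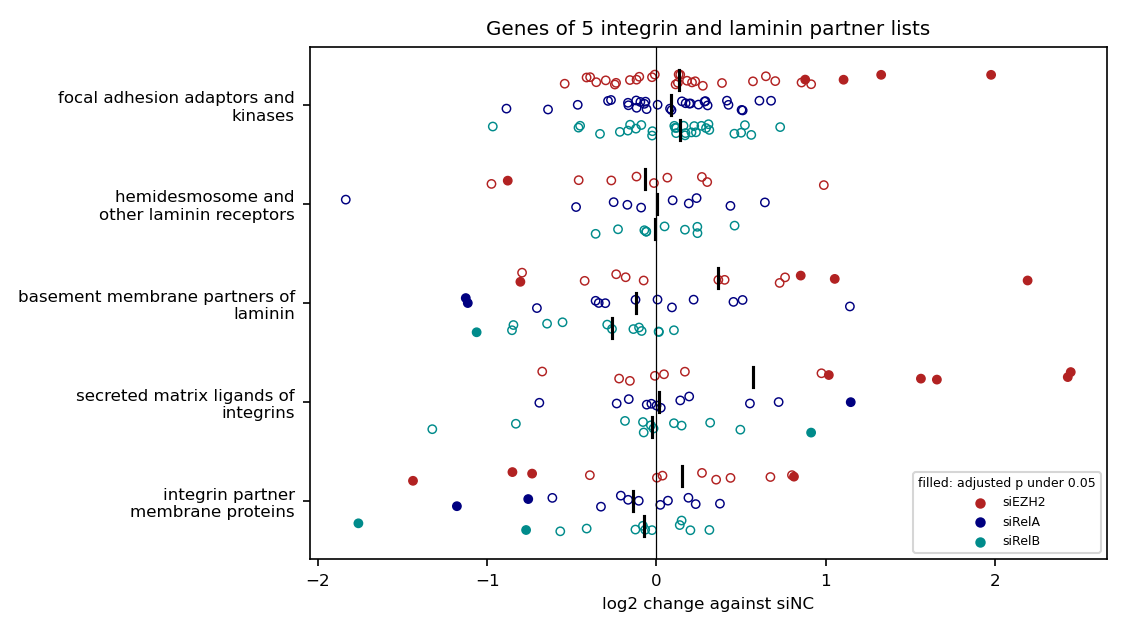
Log2 change against siNC (horizontal axis) of each tested gene of 5 lists of integrin and laminin partners, with siEZH2, siRelA and siRelB in separate rows of points, filled where the adjusted p was under 0.05, and a black bar at each list median. The siEZH2 median is highest for the secreted matrix ligands (0.57), where 5 of 12 genes are filled, and CD82 is filled for all 3 siRNAs in the list of partner membrane proteins.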

How the data were processed

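The authors deposited mean bead intensity per probe, linear and not normalized, made with BeadStudio 3.2.7 per the file headers, with a detection score that rises with signal. Means of 40.8 to 43.1 beads per probe were read on 11 arrays and 23.6 on siNC TNF, and the number of arrays limits the precision. Processed log2 values, also deposited, served as an alternative. Over 5973 bright probes they equal log2 signal scaled per array and centred per probe within 2 sets, the first holding siEZH2 CTRL and siNC CTRL replicates 1 and 2 (4 arrays) and the second the other 8. Residual SDs were at most 5.27e-07 inside a set and at least 0.334 across sets. The software behind this centring was not stated. Array medians of these values ran from -0.116 to 0.214, and higher values mean higher signal.

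Intensities were corrected for background by limma's normexp (limma 3.58.1, R 4.3.3; offset 16; detection p taken as 1 minus the score), quantile normalized and logged. Of 13884 probes detected on 3 or more arrays, the brightest stood for each gene. Symbols were updated from the RefSeq table of GRCh38.p14, with 17828 probes current, 3305 updated, 183 ambiguous and 868 unmatched. siEZH2 and interaction tests used a fit of group means, and the others an additive siRNA and TNF fit, with limma's moderated test and Benjamini-Hochberg adjustment at 0.05 over all genes. A fold against a group in which the gene was undetected is a bound, set on each array at the gene's own value or the dimmest detected probe, whichever was higher. The procedure was tested on simulated data.

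Members called in any comparison are described in full, with up to 4 called genes of each list by size of change, plus CCN2, chosen after its value was seen. Of the 36 genes that the naming rule takes, 1 is not reported here and is left out of every count of members, as is 1 listed marker. Members, lists and tests were chosen with earlier results of these data known. Same-numbered siEZH2 and siNC arrays deviated together (correlations across genes of 0.757, 0.836 and 0.654 for replicates 1, 2 and 3), so the numbers were taken as pairs. Replicates 1 and 3 also correlated across numbers (0.418 and 0.426), and both correlated negatively with replicate 2 (-0.599 to -0.767). The deviations are from the mean of each group's 3 arrays and cancel within a group. Positive correlations of same-numbered arrays therefore push those across numbers toward negative values. The labels do not state the pairing. Alternatives covered background correction, scaling, detection, probe choice, the authors' values, left-out arrays, processing sets and the replicate block.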

Additional observations from a re-analysis of the deposited data

How the results depend on the processing

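The 6 subunit genes called with siEZH2 became 10 without both replicate 2 arrays, 11 with the replicate block, 11 in an additive fit over all arrays, 12 in the second processing set and 0 in the first set of 2 arrays against 2, an alternative chosen after seeing the data in which limma called 0 of all genes (1717 at an unadjusted p under 0.05). Leaving out 1 array gave 5 to 9. With siRelA, the count of 0 became 1 with the authors' processed values, with or without a set term, 6 without both replicate 2 arrays and 7 in the second set, and was 0 to 1 when 1 array was left out. With siRelB, 0 became 1 with the authors' values, with or without a set term, 5 without both replicate 2 arrays and 6 in the second set, and was 0 to 1 when 1 array was left out. No called change reversed its sign. Over these alternatives 122 values of called genes kept their side of the threshold and 10 did not, of which 6 were in the first set, where all 6 calls were lost, and 4 were LAMA3 with 1 array left out. Counts over all genes moved with the same choices, from 1815 to 5350 with the replicate block, to 3803 without both replicate 2 arrays, to 5581 in the second set, to 3987 in the additive fit, to 950 with the authors' values and to 613 to 2172 with 1 array left out. For siRelA, 238 became 31 with only its own and the siNC arrays, 1520 without both replicate 2 arrays and 2148 in the second set, and for siRelB 144 became 1, 1349 and 1935. The cause of these shifts was not tested. No member was called for TNF or the interaction in any alternative. ITGA1, ITGA6, ITGA10 and LAMA2, which were not detected on every array, and the 14 untested genes are limited by signal over background.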
